A study of Mus musculus with 6 samples.

Results

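The adult globin genes and their erythroid companions were examined in brainstem and cerebellum of wild-type and transgenic mice, where their messenger RNA can serve as a gauge of blood left in the dissected tissue. The members were all probes of the array annotated to a listed adult globin gene, to Alas2 or to Slc4a1. This gave 8 probes for 7 genes, out of 56605 probes. The eighth listed gene, Hbb-bs, had no probe under its own name. The 8 probes took up 35 spots on each array, because each of the 3 alpha globin probes was printed 10 times. The wild-type group held 3 samples and the transgenic group 3 samples, all from mice aged 16 weeks whose strain is given as C57BL/6, 129 and C3H. The transgenic mice carry the label MSA, which the labels do not spell out, and neither the transgene nor its promoter is named. No label says that the samples came from separate animals. The p-values therefore reflect only how much these samples vary, which may be technical.

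Haemoglobin is a tetramer of alpha and beta chains, each holding a haem group that binds oxygen. In the mouse the alpha chains come from the neighbouring genes Hba-a1 and Hba-a2 on chromosome 11. The beta chains come from a cluster on chromosome 7 that differs between strains: C57BL/6 mice carry Hbb-bs and Hbb-bt, while other inbred strains carry Hbb-b1 and Hbb-b2. Circulating reticulocytes, the youngest red cells, still hold globin messenger RNA, and neurons and glia have also been described to make some. Alas2 encodes the erythroid form of the first enzyme of haem synthesis, and Slc4a1 encodes band 3, the anion exchanger of the red-cell membrane. In whole tissue, fewer cells of a type and less RNA per cell cannot be told apart.

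The probe sequences and their annotation in the files bear on which transcripts the globin probes can read. The upstream Hba-a1 probe (chr11:32183955-32184014, mm9, plus strand) and the Hbb-b2 probe (no position on mm9 in the files) both cover the stretch that encodes the distal histidine, the residue facing the oxygen-binding side of the haem. Its codon is in capitals in these whole probes, which show how far the chains differ around a shared site.
Hba-a1 upstream probe: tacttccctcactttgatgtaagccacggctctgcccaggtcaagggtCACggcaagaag
Hbb-b2 probe: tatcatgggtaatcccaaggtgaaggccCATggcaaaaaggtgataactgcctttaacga

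The downstream Hba-a1 probe (chr11:32184427-32184486, mm9, plus strand) and the Hba-a2 probe (chr11:32197245-32197304, mm9, plus strand) overlap by 59 of their 60 bases and are annotated to the transcripts of both genes. They are therefore one measurement of the alpha globin pair rather than a separate reading of each gene. A stretch of 30 bases that both contain is shown, with the polyadenylation signal in capitals.
Shared by the Hba-a1 and Hba-a2 probes: tcttggtctttgAATAAAgcctgagtagga

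The Hbb-b1 probe (chr7:110976379-110976438, mm9, minus strand) starts at base 5 of its target transcript per the files, and the files annotate it to an Hbb-bs transcript as well. It matched the first bases of the RefSeq Hbb-bs transcript in 46 of 46 positions, and differed from Hbb-bt at 7 of 45 positions. The same 30 bases are shown for the probe and for both genes (GRCm38.p6), with the bases in which a gene differs from the probe in capitals.
Hbb-b1 probe: tgacatagttgtgttgactcacaaccccag
Hbb-bs: tgacatagttgtgttgactcacaaccccag
Hbb-bt: tgaTTCTgttgtgttgactTGcaaccTcag
Signal on this probe can thus come from Hbb-b1 or Hbb-bs. The Hbb-bt probe lies at chr7:110961105-110961164 (mm9, minus strand), the Alas2 probe at chrX:147004993-147005052 (mm9, plus strand) and the Slc4a1 probe at chr11:102210256-102210315 (mm9, minus strand). The files annotate the Hbb-b2 probe to an Hbb-b1 transcript as well. The Hbb-bt and Hbb-b2 probes were not compared with the other beta globin transcripts, so what they read rests on the annotation alone. Exon and UTR annotation was not used here.

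Globin promoters share a small set of short elements, and 5 of the 8 listed genes had a promoter entry in the RefSeq table (GRCm38.p6). In the 250 bases before the start, 4 motifs were searched on both strands: CACCC, the core of the box bound by erythroid Kruppel-like factors, GATAA, the core of GATA sites, CCAAT and TATAA. Matches may overlap one another. Hba-a1, Hba-a2, Hbb-bs and Hbb-bt each held all 4 motifs, which 0.968% of 32851 promoter windows in the table did. Singly, CACCC was found in 52.0% of all windows, GATAA in 22.6%, CCAAT in 33.8% and TATAA in 22.8%. The Alas2 window held CACCC 3 times, GATAA 1 time, TATAA 2 times and CCAAT 0 times. Taken with the 50 bases after the start that the table also holds, the entries of Hba-a1 and Hba-a2 shared a run of 297 identical bases, so 1 of them is shown. The 220 bases before the start of an alpha globin, both C57BL/6 beta globins and Alas2 are given because these members are followed together below, with the motifs in capitals.
Hba-a1, chr11:32283452-32283671, plus strand: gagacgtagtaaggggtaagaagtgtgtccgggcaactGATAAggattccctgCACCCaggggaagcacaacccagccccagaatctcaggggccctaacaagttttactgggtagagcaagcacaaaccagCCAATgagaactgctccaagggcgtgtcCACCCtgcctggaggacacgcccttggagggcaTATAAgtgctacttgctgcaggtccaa
Hbb-bs, chr7:103827929-103828148, minus strand: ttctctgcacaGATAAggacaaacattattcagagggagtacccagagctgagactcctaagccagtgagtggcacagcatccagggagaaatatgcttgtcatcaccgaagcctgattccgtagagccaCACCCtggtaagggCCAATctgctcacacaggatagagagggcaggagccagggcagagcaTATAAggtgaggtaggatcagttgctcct
Hbb-bt, chr7:103813924-103814143, minus strand: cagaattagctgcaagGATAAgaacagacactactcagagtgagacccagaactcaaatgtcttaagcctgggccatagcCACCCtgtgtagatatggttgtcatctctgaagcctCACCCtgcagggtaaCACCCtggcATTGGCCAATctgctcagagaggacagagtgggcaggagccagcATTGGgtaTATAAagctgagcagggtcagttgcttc
Alas2, chrX:150547197-150547416, plus strand: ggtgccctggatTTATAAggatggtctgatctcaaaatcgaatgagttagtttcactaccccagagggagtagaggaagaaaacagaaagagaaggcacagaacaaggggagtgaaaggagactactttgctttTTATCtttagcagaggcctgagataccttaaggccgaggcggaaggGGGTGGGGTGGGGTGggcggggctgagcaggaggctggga

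Each sample was measured on 1 single-colour array, and levels below are log2 values relative to the array's 75th percentile, an intensity of 406 units for wild-type replicate 1 and of 535 to 609 units elsewhere. Slide 1 held wild-type replicate 1 by itself, and slide 2 held the remaining 5 arrays. Defining genes of the labelled tissue, among them Pcp2 and Calb1 of Purkinje cells, Gabra6 of granule cells and Slc6a5 of glycinergic neurons, Mbp of oligodendrocytes, Gfap of astrocytes and Tubb3 of neurons, were well above background on all 6 arrays. All 8 member probes were well above background on all 6 arrays as well, and no spot was saturated. The signal of the alpha globin spots ran from 27868 to 187114 intensity units, whereas that of Slc4a1 ran only from 37.6 to 63.8. The 10 spots of an alpha globin probe differed by a coefficient of variation of 2.09% to 4.69% within an array, or 0.031 to 0.068 on the log2 scale. The same probes spanned 0.64 to 0.71 on that scale from the lowest to the highest sample. On the probe of Hba-a1 further downstream, 8 spots in all carried an outlier mark and were left out.

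The alpha globin probes showed a moderate spread between samples and no difference between genotypes that passed the test. The downstream Hba-a1 probe had log2 levels of 7.81, 7.74 and 7.52 in wild-type replicates 1 to 3, and of 7.74, 8.02 and 8.19 in transgenic replicates 1 to 3. Transgenic replicates 2 and 3 lay above every wild-type sample, while transgenic replicate 1 lay among them, so the groups overlapped. The log2 difference was 0.30 ± 0.15 (SE, n = 3 per genotype, as for all differences over the 6 arrays), or 1.23-fold, with a 95% interval of -0.07 to 0.66 and a limma adjusted p of 0.843. The probe of Hba-a2 followed it, with 7.77, 7.69 and 7.51 in wild-type and 7.72, 7.95 and 8.16 in transgenic samples, and a difference of 0.29 ± 0.14 (limma adjusted p = 0.843). With quantile normalization these differences were 0.15 and 0.13, and with the authors' value table, which is quantile normalized, 0.15 and 0.13.

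The upstream Hba-a1 probe reads another stretch of the same transcripts. Its log2 levels were 6.28, 5.89 and 5.76 in wild-type and 5.98, 6.24 and 6.47 in transgenic samples. The order of the 5 samples on slide 2 matched that of the downstream probes, but wild-type replicate 1 stood higher, second only to transgenic replicate 3. The difference was 0.25 ± 0.19 (limma adjusted p = 0.843), 1.19-fold.

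Of the beta globins, Hbb-bt, an adult gene of the C57BL/6 cluster, resembled the upstream alpha probe. Its log2 levels were 5.52, 5.10 and 5.02 in wild-type and 5.11, 5.32 and 5.72 in transgenic samples. Transgenic replicate 3 and wild-type replicate 1 were the highest, and the groups overlapped. The difference was 0.17 ± 0.21 (limma adjusted p = 0.860), and 0.005 without transgenic replicate 3 and 0.07 without wild-type replicate 3.

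The Hbb-b1 probe, which also matches Hbb-bs, was set apart by a single sample. Its log2 levels were 2.93, 1.85 and 1.89 in wild-type and 2.23, 2.30 and 2.45 in transgenic samples. Wild-type replicate 1 was the highest of all and the other wild-type samples the lowest, with the transgenic samples between them within a range of 0.21. The difference was 0.10 ± 0.30 (limma adjusted p = 0.943).

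Hbb-b2, the minor adult chain of the other beta haplotype, varied most and in an order of its own. Its log2 levels were 4.87, 3.29 and 3.92 in wild-type and 4.15, 3.61 and 3.79 in transgenic samples, a range of 2.99-fold. Wild-type replicates 1 and 2 were the highest and the lowest of the 6, so the whole range lay within 1 genotype. It was the only member probe with a negative difference, -0.18 ± 0.40 (limma adjusted p = 0.924), and the 95% interval ran from -1.16 to 0.80. The labels give the same strains for all samples and no genotype at the beta globin cluster, and whether samples differed there was not tested.

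Alas2 stood close to the Hbb-b1 pattern. Its log2 levels were 0.54, -0.23 and -0.33 in wild-type and -0.12, 0.10 and 0.29 in transgenic samples. Again wild-type replicate 1 was the highest and the other wild-type samples the lowest. The difference was 0.10 ± 0.26 (limma adjusted p = 0.934), with a 95% interval of -0.53 to 0.72.

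Slc4a1, the dimmest member, varied least. Its log2 levels were -3.43, -3.56 and -3.26 in wild-type and -3.48, -3.21 and -3.38 in transgenic samples, a range of 1.27-fold with no separation by genotype. The difference was 0.06 ± 0.12 (limma adjusted p = 0.916) and turned to -0.11 with normexp background correction. This probe did not share the high value of transgenic replicate 3 seen for the alpha globins.

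**Figure D1:**
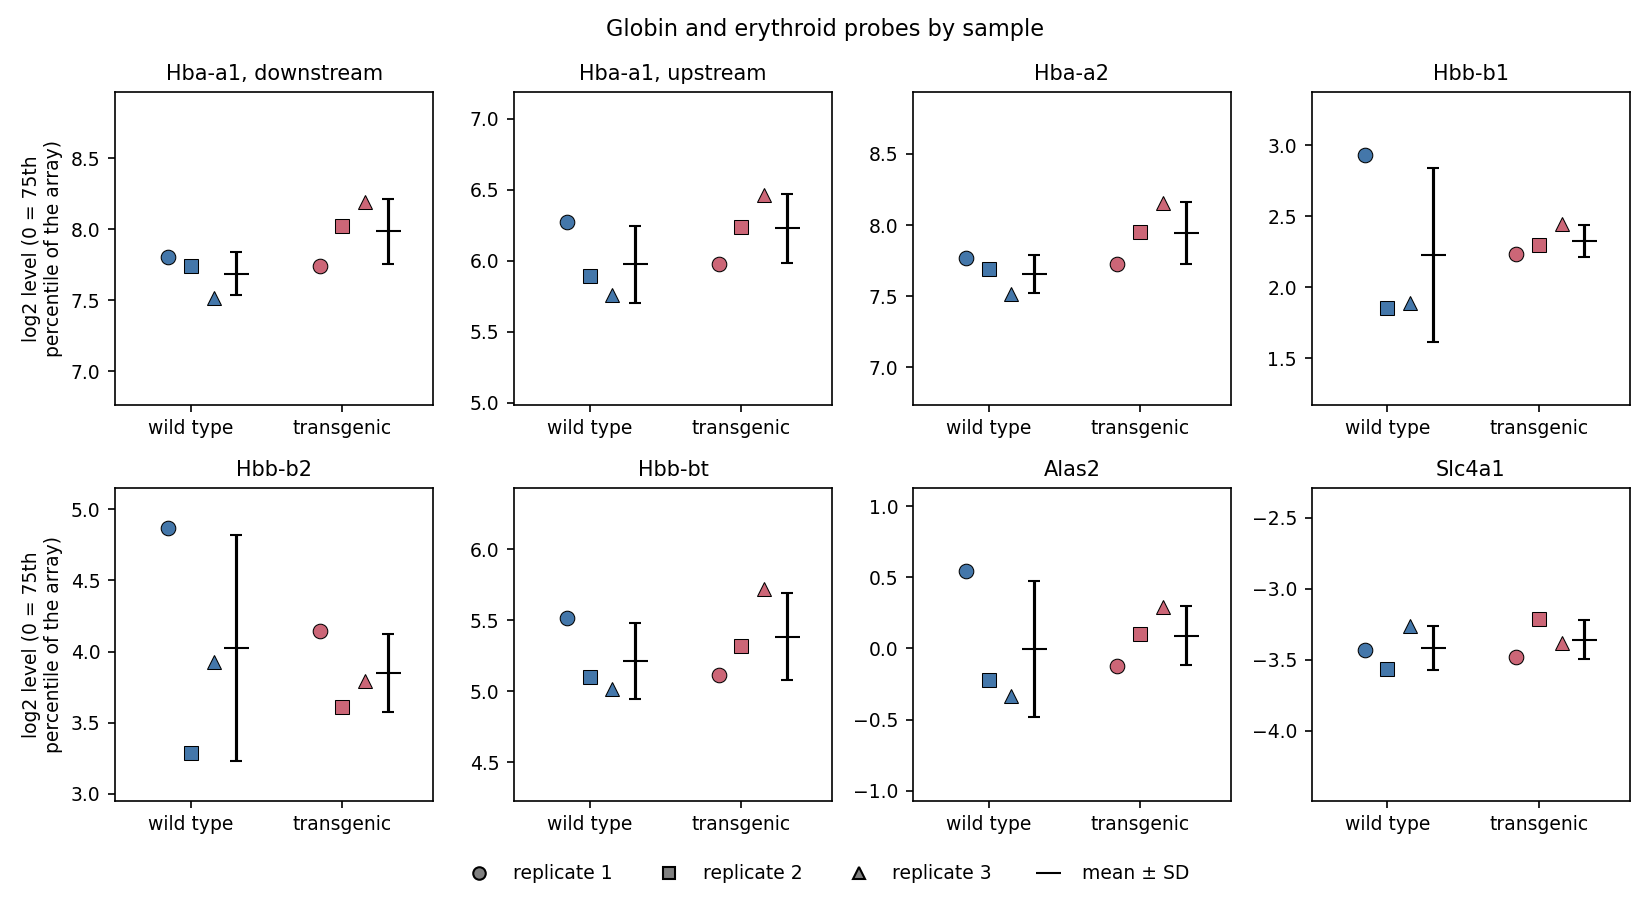
Log2 level of each of the 8 member probes (vertical axis, 0 = the array's 75th percentile, every panel spanning the same 2.2 log2 units) in wild-type and transgenic samples; symbols mark the replicate and the bars the mean ± SD. Wild-type replicate 1 lies at 2.93 for Hbb-b1 and 4.87 for Hbb-b2, above all other samples, while transgenic replicate 3 is the highest for the alpha globins at 8.19, 6.47 and 8.16.

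Across all 6 arrays, 0 of the 8 member probes passed an adjusted p of 0.05 (limma, Benjamini-Hochberg over 38463 probes), and 0 had an unadjusted p under 0.05. Over all tested probes 11 passed, which is 0.0286%, of which 10 (0.026%) were higher and 1 (0.0026%) was lower in transgenic samples, and 2150 (5.59%) had an unadjusted p under 0.05. The difference was positive for 7 of 8 member probes, with a median of 0.14, where 48.1% of all tested probes had a positive difference and their median was -0.01. The groups overlapped for all 8 member probes, against 6.68% of tested probes with all transgenic samples above all wild-type samples and 7.26% with all of them below. Since several member probes read the same transcripts, the 7 positive values are not independent of one another.

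The comparison changed in size when wild-type replicate 1 was set aside. Within slide 2, which held 2 wild-type and 3 transgenic arrays, the difference was positive for 8 of 8 member probes with a median of 0.35. It was 0.45 ± 0.09 for Hbb-b1 (1.37-fold), 0.40 ± 0.16 for the upstream Hba-a1 probe, 0.37 ± 0.14 for Alas2, 0.36 ± 0.16 for the downstream Hba-a1 probe and 0.34 ± 0.15 for Hba-a2. Hbb-bt had 0.33 ± 0.19, Hbb-b2 0.24 ± 0.25 and Slc4a1 0.05 ± 0.13. Both wild-type samples of this slide lay below all transgenic samples for 6 of the 8 probes, all but Hbb-b2 and Slc4a1, where 13% of tested probes were separated in this direction. An unadjusted p under 0.05 was reached by 3 of the 8 (Hbb-b1, Alas2 and the upstream Hba-a1 probe), against 8.27% of all probes. None passed after adjustment, the lowest being Hbb-b1 (limma adjusted p = 0.344), while 0.026% of all probes did. For the downstream alpha probes the separation was narrow, with wild-type replicate 2 at 7.739 and transgenic replicate 1 at 7.743 on the Hba-a1 probe.

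**Figure D2:**
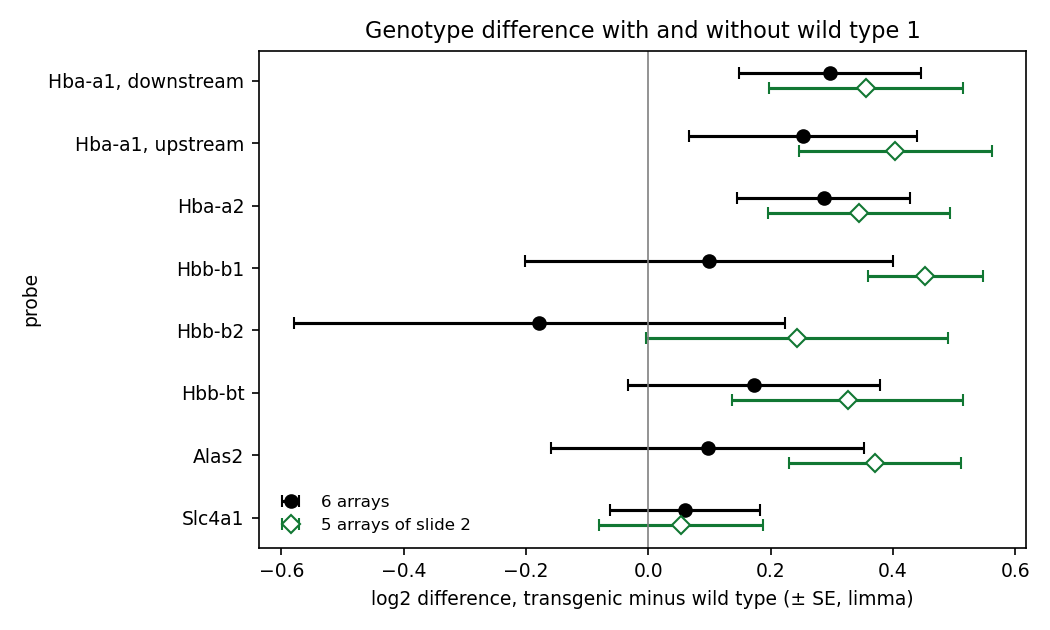
Log2 difference, transgenic minus wild type, of each member probe (horizontal axis) with its standard error from limma, over all 6 arrays (filled circles) and over the 5 arrays of slide 2 (open diamonds). Without wild-type replicate 1 the difference of Hbb-b1 moves from 0.10 to 0.45 and that of Hbb-b2 from -0.18 to 0.24, and no probe passed the adjusted test in either fit.

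How far the members followed one another was described by centring each probe on its own mean and taking the root-mean-square difference of the 6 centred values, where a small value means a like pattern. The points share arrays, scaling and depth of signal, so the values describe likeness only. The overlapping Hba-a1 and Hba-a2 probes differed by 0.02, and each differed from the upstream Hba-a1 probe by 0.10. Hbb-bt differed from the upstream Hba-a1 probe by 0.07, although it reads another gene cluster. Alas2 was nearest to Hbb-b1, at 0.11, and lay at 0.14 from Hbb-bt and at 0.15 from the upstream Hba-a1 probe. Slc4a1 lay at 0.22 to 0.51 from the other members. Hbb-b2 was the farthest, at 0.30 from Hbb-b1 and at 0.39 to 0.57 from the rest.

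The centred values show where these patterns part. Transgenic replicate 3 stood 0.36 above the mean for all 3 alpha probes, 0.42 above for Hbb-bt, 0.25 for Alas2 and 0.17 for Hbb-b1, but 0.15 below for Hbb-b2. Wild-type replicate 3 had the lowest value for the alpha probes, Hbb-bt and Alas2, and wild-type replicate 2 for Hbb-b1, Hbb-b2 and Slc4a1. Wild-type replicate 1 deviated by 0.93 for Hbb-b2, 0.66 for Hbb-b1, 0.50 for Alas2, 0.22 for Hbb-bt and 0.18 for the upstream Hba-a1 probe, but by -0.03 for both downstream alpha probes. Per the files, the Hbb-b1, upstream Hba-a1 and Hbb-b2 probes start at bases 5, 161 and 215 of their transcripts, and the Hba-a2, downstream Hba-a1 and Hbb-bt probes at bases 497, 499 and 503. The Alas2 probe, which deviated by 0.50, starts at base 1806, and the Slc4a1 probe, which deviated by -0.04, at base 4368. Over 4316 transcripts read by probes at least 300 bases apart, the upstream probe's centred level exceeded that of the downstream probe by a median of 0.07 on wild-type replicate 1, against -0.03 to -0.002 on the other 5 arrays. The part of this array-wide shift in the globin values was not tested.

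**Figure D3:**
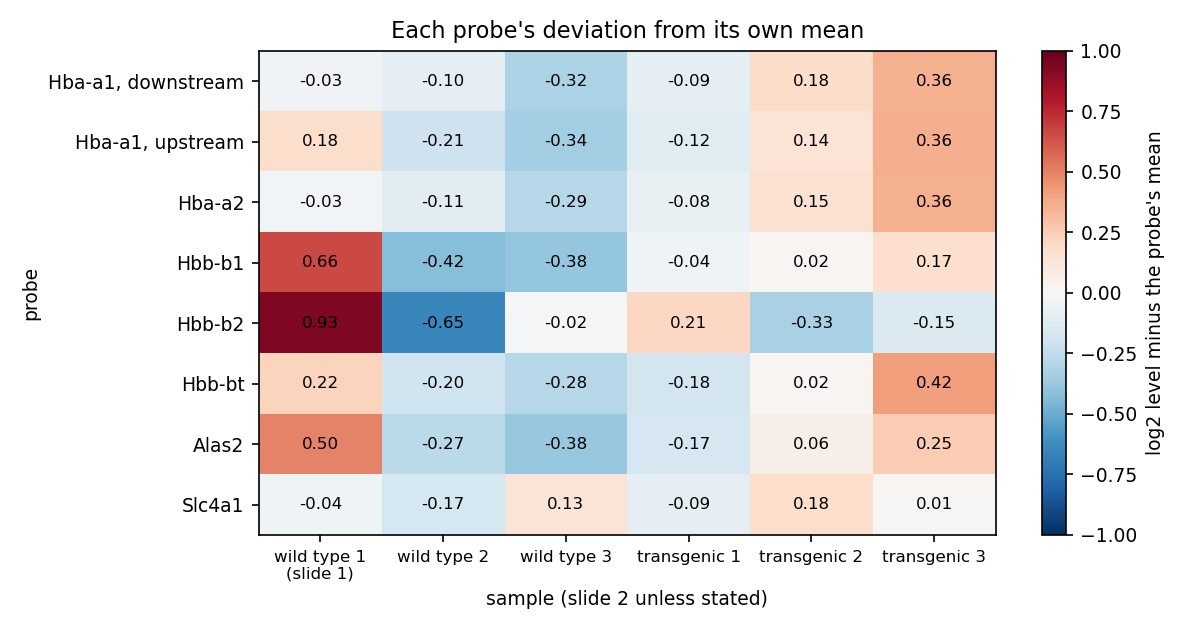
Deviation of each member probe (rows) from its own mean over the 6 arrays, in log2 units, for each sample (columns), printed in the cell and coloured from -1 to 1. Wild-type replicate 1 is 0.93 above the mean for Hbb-b2 and 0.66 for Hbb-b1 but -0.03 for both downstream alpha probes, and transgenic replicate 3 is 0.36 above for all alpha probes.

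As a gauge, the members differed in how much they spread among samples of 1 genotype. The pooled within-genotype SD was 0.59 for Hbb-b2, 0.44 for Hbb-b1, 0.37 for Alas2, 0.29 for Hbb-bt and 0.26 for the upstream Hba-a1 probe. It was 0.19 and 0.18 for the downstream Hba-a1 and the Hba-a2 probes and 0.14 for Slc4a1, where the median over all tested probes was 0.18. The SD among wild-type and among transgenic samples was 0.80 and 0.27 for Hbb-b2, 0.61 and 0.11 for Hbb-b1 and 0.48 and 0.21 for Alas2. Wild-type replicate 1, alone on its slide, was the highest sample for all of these. For Hbb-bt and the downstream alpha probes the transgenic SD was the larger, at 0.31 against 0.27 for Hbb-bt. Among tested probes whose mean level lay within 1 log2 unit, Hbb-b2 was at percentile 98.1, Hbb-b1 at 96.0, Alas2 at 92.1, Hbb-bt at 91.0 and the upstream Hba-a1 probe at 86.9. The downstream Hba-a1 and Hba-a2 probes were at percentiles 55.6 and 53.9 and Slc4a1 at 16.0. From the lowest to the highest of the 6 samples, the alpha probes spanned 1.56-fold to 1.63-fold and the beta probes 1.63-fold to 2.99-fold.

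The mean centred level of the 6 adult globin probes was 0.32, -0.28 and -0.27 in wild-type replicates 1 to 3 and -0.05, 0.03 and 0.25 in transgenic replicates 1 to 3. That of the alpha globin probes alone was 0.04 in wild-type replicate 1 and highest in transgenic replicate 3, at 0.36. The genes below were set against the mean of all 6 probes. Of the 26752 probes named by a gene symbol and well above background on all arrays, the 5 genes nearest to that mean were Cald1, Pvt1, Vwa5b2, Sgcz and Vwa3b. Their root-mean-square difference from it over the 6 samples was 0.04 to 0.06, where the median probe had 0.25. Their own genotype differences were 0.09 to 0.17 (limma adjusted p = 0.847 to 0.915). Because the genes were picked for likeness over these same 6 samples, that choice sets these differences near the globin one. The likeness is therefore a description only, and some near matches are to be looked for among so many probes.

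Globins of embryonic red cells gave little signal. The embryonic and theta-like genes Hba-x, Hbb-bh1, Hbb-bh2, Hbb-y, Hbq1a and Hbq1b were not well above background on all arrays of either genotype. Of the globins made outside red cells, the neuronal globin gene Ngb had a log2 difference of 0.47 ± 0.33 (0.22 with normexp), the myoglobin gene Mb -0.35 ± 0.27 and the cytoglobin gene Cygb -0.03 ± 0.10. None of the 3 passed the test (limma adjusted p at least 0.843), and Ngb, at -2.71, -1.99 and -2.70 in wild-type and -1.99, -2.53 and -1.46 in transgenic samples, was highest in transgenic replicate 3, as the alpha globins were, but among the lowest in wild-type replicate 1.

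Genes of red-cell precursors were mostly dim. Of 26 other erythroid genes 17 were tested, and the other 9, which include Gata1, the master regulator of the lineage, were not well above background on any of the 6 arrays. None of the 17 passed the test in either direction. Their median log2 difference was 0.25, but 3 of them, Klf1, Gfi1b and Ahsp, were above background on all transgenic and not on all wild-type arrays. The median was 0.08 over the genes above background on all 6 arrays, 0.08 with no filter and 0.01 with normexp background correction. It was also lower without wild-type replicate 1 (0.14), without wild-type replicate 2 (0.14) and without transgenic replicate 2 (0.11). Klf1, the factor that switches on adult beta globin, exceeded background clearly in 3 transgenic samples but in 0 wild-type samples. It entered the test through the transgenic samples alone and did not pass (limma adjusted p = 0.459), and its difference was -0.16 with normexp, so no fold is given. Hemgn, a nuclear protein gene of blood-forming cells, had 0.25 ± 0.09, Tal1, a transcription factor of blood and vessel cells, 0.48 ± 0.20 and Car1, a carbonic anhydrase of red cells, 0.53 ± 0.30 (0.06 with normexp). The ends of the range were Gfi1b, a repressor of erythroid and platelet precursors, at 0.96 ± 0.67 (-0.06 with normexp, and well above background on 2 of 3 wild-type arrays), and Epb41, a membrane skeleton gene also active in neurons, at -0.10 ± 0.09. The summed level of the 17 genes, in multiples of the 75th percentile, was 52.9 to 55.6 in wild-type and 54.2 to 56.0 in transgenic samples. This sum is set by the brightest genes, such as Epb41, Hemgn and Sptb, at 4.45, 3.53 and 2.87 on wild-type replicate 1. Klf1, Gfi1b, Ahsp and Car1, at -7.53 to -4.25 there, add almost nothing to it. On wild-type replicate 1, where the globin mean was highest, the mean centred level of this list was lowest, at -0.29. The genes of the list went both ways there. The dim Gfi1b, Car1 and Tspo2 were lowest on that array, at -7.53, -4.25 and -3.11, as was the brighter Hemgn at 3.53. Epb41, Sptb, Ank1 and Slc25a37 were highest on it, at 4.45, 2.87, 1.70 and 1.66.

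Haem synthesis genes beyond Alas2 lay close to the median of all probes. All 12 listed genes were tested, none passed, and their median difference was -0.02. Cpox and Uros, enzymes of the pathway, had -0.22 ± 0.12 and -0.12 ± 0.12. Alad, the enzyme after Alas2, had 0.18 ± 0.25, the mitochondrial carrier gene Slc25a38 0.11 ± 0.08 and Abcb10 0.10 ± 0.13. The summed level was 86.5 to 96.0 in wild-type and 87.5 to 90.7 in transgenic samples.

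Genes that capture free haemoglobin or break down haem were tested as the route by which lysed red cells are cleared. All 11 were tested and none passed, with a median difference of 0.02. Hmox1, the inducible haem oxygenase, had log2 levels of -0.14, -0.11 and -0.27 in wild-type and 0.33, 0.09 and 0.22 in transgenic samples. Its groups did not overlap, and its difference was 0.39 ± 0.10 (limma adjusted p = 0.653). Cd163, the haemoglobin scavenger receptor of macrophages, was also separated, at 0.54 ± 0.17 (limma adjusted p = 0.779). Of the 11 genes 3 were separated with transgenic samples higher, the third being Slc48a1 at 0.07 ± 0.08, against 6.68% of all tested probes. Hp, which encodes haptoglobin, had 0.55 ± 0.24, and Hpx, which encodes the haem carrier haemopexin, -0.47 ± 0.24. With normexp the values were 0.33 for Hmox1, 0.22 for Cd163, 0.06 for Hp and -0.30 for Hpx.

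Markers of other blood cells and of vessels were set beside the globins, since blood and vessel content can move together. Tested were 8 of 10 platelet, 8 of 12 neutrophil, 7 of 11 T and B cell and 12 of 12 endothelial genes, of which none passed, and the median over all tested probes was -0.01. Platelet genes had a median difference of 0.24 (0.01 with normexp), with Gp9 at 0.86 ± 0.37 (0.14 with normexp), Clec1b at 0.58 ± 0.34 (0.02 with normexp), Treml1 at 0.30 ± 0.15 (-0.005 with normexp), Pf4 at 0.18 ± 0.13 and Gp6 at -0.02 ± 0.20 (-0.16 with normexp). Their mean centred level was highest in transgenic replicate 3, at 0.44, the sample with the highest alpha globin level. The neutrophil and the T and B cell means were instead highest in transgenic replicate 2, at 0.42 and 0.22. Neutrophil genes had a median of 0.46 (0.15 with normexp), with S100a8 at 0.98 ± 0.32 (0.58 with normexp), Mpo at 0.87 ± 0.36 (-0.007 with normexp, and well above background on 2 of 3 wild-type arrays), S100a9 at 0.73 ± 0.27, Camp at 0.39 ± 0.14 (0.19 with normexp) and Csf3r, also a microglial gene, at 0.08 ± 0.27. The neutrophil median was 0.39 over the genes above background on all 6 arrays and 0.63 with no filter. T and B cell genes had a median of 0.37 (-0.11 with normexp and 0.08 without wild-type replicate 1), from -0.59 ± 0.28 for Ms4a1 to 0.67 ± 0.36 for Cd4, with Cd3e at 0.41 ± 0.28 and Lck at 0.44 ± 0.30 (0.15 with normexp). That median is the value of Cd3d. Cd3d and Cd79b were well above background on all transgenic but only 2 of 3 wild-type arrays. The T and B cell median was 0.41 over the genes above background on all 6 arrays and 0.36 with no filter.

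On wild-type replicate 1 the globin mean was 0.32. The platelet, neutrophil and T and B cell means were below 0 there, at -0.18, -0.58 and -0.61. That array had the lowest median signal, 48.6 intensity units against 72.5 to 81.6 elsewhere. Single genes went both ways on it. The dim Gp9 and Mpo were lowest there, at -5.31 and -5.95, as were the brighter Cd4 and Cd3e, at -0.10 and -1.16. Pf4 and Ppbp, at -0.61 and -2.93, lay above both other wild-type samples. The part of dim signal in these means was not tested. Endothelial genes had a median difference of -0.03, with Cldn5, the tight junction gene of brain endothelium, at -0.42 ± 0.21, Emcn and Vwf at -0.11 ± 0.09 and -0.11 ± 0.11, Pecam1 at 0.12 ± 0.12 (-0.03 with normexp) and Esam at 0.13 ± 0.15. For platelet genes the summed levels were 1.02 to 1.158 in wild-type and 1.156 to 1.52 in transgenic samples, so the groups overlapped. Pf4, the brightest platelet gene at -0.87 to -0.38, weighed most in this sum. The 7 neutrophil genes other than Csf3r summed to 1.03 to 1.595 in wild-type and 1.67 to 2.01 in transgenic samples. With Csf3r, which made up nearly all of the neutrophil sum, the ranges were 64.7 to 113.6 and 79.7 to 112.6 and overlapped. The sums were 1.68 to 3.58 and 3.54 to 4.71 for T and B cell genes, and 57.6 to 63.1 and 57.2 to 61.1 for endothelial genes. The part of blood or vessel content in the globin values was not tested beyond these figures.

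**Figure D4:**
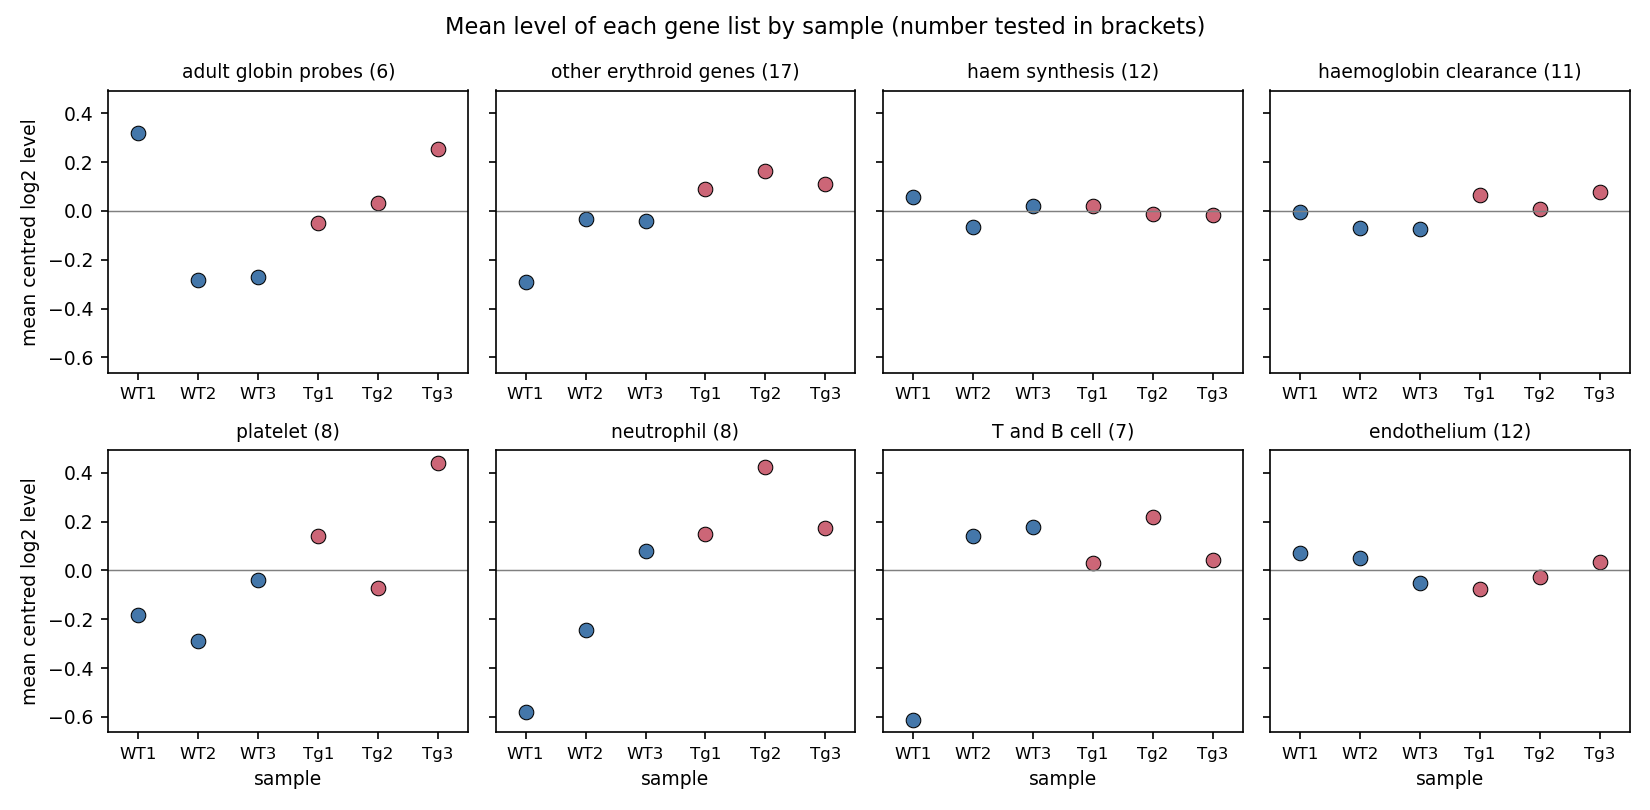
Mean centred log2 level (vertical axis) of the adult globin probes and of 7 gene lists in each sample (horizontal axis, wild type in blue, transgenic in red), with the number of probes or genes tested in brackets. The globin mean is highest on wild-type replicate 1 at 0.32, where the other erythroid genes are at -0.29 and the neutrophil genes at -0.58. The erythroid mean includes Klf1, Gfi1b and Ahsp and the neutrophil mean Mpo, which were not well above background on all wild-type arrays. Wild-type replicate 1 had the lowest median signal, and single erythroid genes went both ways on it. The part of dim signal in these means was not tested.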

How the data were processed

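Each of the 6 samples was hybridised to its own Agilent mouse array with 1 dye, Cy3. Per the file headers, spots were read with Feature Extraction 10.7.1.1 and annotated on mm9 (the submitters' processing notes name 9.5.1.1). The deposited scanner values are intensity units from which, per the file headers, Feature Extraction had already taken the background. The authors' deposited value table holds intensity values with a median of 59.9 in every column, and it served as an alternative. At least 99.99% of its values lay within 0.05 log2 of a quantile normalization of the scanner values.

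Control spots and 39 to 84 outlier spots per array were left out. Log2 signals were scaled to each array's 75th percentile over probes, and spots of a probe averaged. The 38463 probes whose signal cleared background on every array of at least 1 genotype were compared with limma 3.58.1 (R 4.3.3), called at a Benjamini-Hochberg adjusted p under 0.05. Each probe was tested by itself. List genes were read by their brightest tested probe. The steps were tested on simulated data, and the number of arrays limits the precision.

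Named from each list were the 4 genes with the smallest p and the ends of the range, and the 5 genes most like the globins. The members and lists were chosen with earlier results of these data known.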

Additional observations from a re-analysis of the deposited data

How the results depend on the processing

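The count of called member probes was 0 in all 16 alternatives, and that of called list genes 0 in all 17. Their median log2 difference of 0.14 became 0.29 with array weights and 0.35 with slide as a block, the same fit as without wild-type replicate 1, and ran from 0.052 to 0.35 when 1 sample was left out, the upper end without wild-type replicate 1. Of 127 values of single member probes under the alternatives 11 changed direction, none of them called. Hbb-b2 turned to 0.24 with slide as a block or without wild-type replicate 1 and to 0.23 with array weights. With 1 sample left out at a time Hbb-b2 ran from -0.55 to 0.24. Slc4a1 turned to -0.11 with normexp, and ran from -0.013 to 0.14 with 1 sample left out, negative without wild-type replicate 2 or transgenic replicate 2. Alas2 ran from -0.067 to 0.37, negative without wild-type replicates 2 or 3 or transgenic replicate 3. Hbb-b1 ran from -0.087 to 0.45, negative without wild-type replicates 2 or 3. The downstream Hba-a1 probe ran from 0.19 to 0.42, the upstream one from 0.13 to 0.40, Hba-a2 from 0.18 to 0.40 and Hbb-bt from 0.005 to 0.33. The cause was not tested. Probes called over all 38463 numbered 11, but 37 with normexp, 4 with no filter, 23 over only those probes that cleared background on all 6 arrays, 34 with an intensity trend and 94 with array weights. The count ran from 0 (without wild-type replicate 3, transgenic replicate 1 or transgenic replicate 2, with 2043, 1559 and 1795 at an unadjusted p under 0.05) to 10 without wild-type replicate 1, with 4 and 5 without wild-type replicate 2 and transgenic replicate 3. Median spread of the member probes, 0.27, stayed within 0.20 to 0.36. Of the members Slc4a1 had the least signal. No paired analysis was possible because the labels give the groups no shared replicate numbers. With the first digit of the number in the sample title as a block, 12 probes were called, of which 8 were among the 11, and no member probe.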

Other observations

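The centred mean level of the 6 adult globin probes was also entered as a covariate in the comparison of all 38463 probes. With it 8 probes passed an adjusted p of 0.05 in limma, against 11 without it, and 6 of the 8 were among the 11. The log2 differences of the 11 moved by at most 0.17, with a median shift of 0.05. An unadjusted p under 0.05 was reached by 7455 probes with the covariate and by 2150 without it. The globin mean is highest on wild-type replicate 1, which was alone on its slide, so the level and the slide cannot be told apart there. The alpha globin probes alone had a mean of 0.04 on that array and were highest on transgenic replicate 3, at 0.36.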
